A study of Mus musculus with 4 samples.

Results

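RAB GTPases are small membrane-bound switches that mark the compartments of the cell. In the GTP-bound form each RAB recruits effectors that move, tether and fuse vesicles, and exchange factors and GTPase-activating proteins turn it on and off. In dendritic cells, which take up, process and display antigen, RABs steer endosomes, phagosomes and the vesicles that carry MHC molecules and cytokines. The histone mark H3K79me2 is laid down by Dot1l along transcribed genes and is usually densest in their 5' part. The genes described here are the protein-coding genes whose RefSeq symbol begins with Rab and a digit, 69 of 21900. The symbol takes in 59 GTPases and 10 genes for proteins that bind or regulate them, so the set is wider than the GTPases alone.

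The mark was mapped by ChIP-seq, the sequencing of DNA pulled down with an antibody, in dendritic cells grown in culture from the bone marrow of C57BL/6J mice (BMDCs). One group received the amino acid lysine at 18 mM for 6 h, and the other received PBS, for which the labels give no time. Of the 4 samples each group holds an H3K79me2 library and an input, and only the broad peaks of the H3K79me2 pair were used. With 1 library per group no test was possible: every difference below describes these libraries and has no replicate check. Read totals are not in the lists, so the depth is unknown. The lysine list is the shorter, with 9805 peaks that cover 5.40 Mb, while the PBS list has 11926 that cover 6.78 Mb. Fold enrichment and −log10 q are the authors' values for each peak, and a rank is the place of a peak in its own list by −log10 q. Strict peaks below are those with a −log10 q of 5 or more, high-fold peaks those with a fold of 4 or more, and narrow blocks the sharper stretches that the authors called inside broad peaks. Among dendritic cell markers 7 of 16 genes had covered length in lysine and 11 of 16 in PBS, with 6.08 kb in lysine and 10.8 kb in PBS in all, and Spi1, Irf4, Ccr7, Csf2rb and H2-Aa were at 0 in both libraries. Macrophage markers were covered in 3 of 8 genes in lysine and 6 of 8 in PBS (1.94 kb in lysine and 2.42 kb in PBS), neutrophil markers in 0 of 8 in lysine and 1 of 8 in PBS, T and B cell markers in 1 of 9 in each (Cd3d), and neuron, liver and muscle markers in 0 of 10 in each. Of all protein-coding genes 31.4% had covered length in lysine and 34.0% in PBS, and whether the marker lists differ from these shares was not tested. The part of these markers in the RAB results was not tested. The libraries come from cell populations, so fewer cells with the mark and less mark per cell cannot be told apart. Coordinates are on GRCm38.

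The promoters that the results turn on are shown first, since most peaks on RAB genes with a RefSeq start lie near that start. Each is the 250 bases before a RefSeq start, read 5' to 3' on the strand of the gene and credited to RefSeq, build GRCm38.p6. Rab5b carries the strongest RAB peak, Rab8b, Rab21 and Rab28 the largest shortfalls in lysine among the GTPases with a start peak in both libraries, Rab1a the largest gain, and Rab20 is marked without any peak at its start. Capitals mark the CCAAT box (CCAAT), the GC box (GGGCGG) and the E-box (CACGTG), on either strand.
Rab5b (chr10:128696269-128696518, minus strand): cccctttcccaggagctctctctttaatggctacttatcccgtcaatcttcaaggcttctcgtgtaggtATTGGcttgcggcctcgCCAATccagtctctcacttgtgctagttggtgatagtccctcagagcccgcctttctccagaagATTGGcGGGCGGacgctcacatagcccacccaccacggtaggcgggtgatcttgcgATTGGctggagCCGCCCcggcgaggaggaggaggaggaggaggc
Rab8b (chr9:66919706-66919955, minus strand): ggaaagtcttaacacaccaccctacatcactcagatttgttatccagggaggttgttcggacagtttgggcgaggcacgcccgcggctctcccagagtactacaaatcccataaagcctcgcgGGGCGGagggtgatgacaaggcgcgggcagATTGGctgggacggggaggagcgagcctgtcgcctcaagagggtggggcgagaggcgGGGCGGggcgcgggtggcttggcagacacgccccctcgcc
Rab21 (chr10:115315592-115315841, minus strand): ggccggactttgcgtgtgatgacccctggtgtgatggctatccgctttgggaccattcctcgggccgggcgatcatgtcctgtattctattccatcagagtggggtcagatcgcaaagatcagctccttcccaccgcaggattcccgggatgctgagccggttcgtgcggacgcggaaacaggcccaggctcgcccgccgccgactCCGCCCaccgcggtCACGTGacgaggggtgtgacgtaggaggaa
Rab28 (chr5:41708180-41708429, minus strand): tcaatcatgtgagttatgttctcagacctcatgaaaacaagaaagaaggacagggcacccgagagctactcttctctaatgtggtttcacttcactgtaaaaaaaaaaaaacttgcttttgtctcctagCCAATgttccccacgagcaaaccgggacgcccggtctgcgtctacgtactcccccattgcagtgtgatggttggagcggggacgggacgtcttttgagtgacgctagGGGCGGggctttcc
Rab1a (chr11:20201162-20201411, plus strand): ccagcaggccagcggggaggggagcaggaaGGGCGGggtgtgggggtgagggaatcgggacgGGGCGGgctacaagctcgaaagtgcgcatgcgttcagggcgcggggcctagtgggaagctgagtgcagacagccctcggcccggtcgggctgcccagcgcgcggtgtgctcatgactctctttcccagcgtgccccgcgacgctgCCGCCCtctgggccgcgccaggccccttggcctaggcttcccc
Rab20 (chr8:11478641-11478890, minus strand): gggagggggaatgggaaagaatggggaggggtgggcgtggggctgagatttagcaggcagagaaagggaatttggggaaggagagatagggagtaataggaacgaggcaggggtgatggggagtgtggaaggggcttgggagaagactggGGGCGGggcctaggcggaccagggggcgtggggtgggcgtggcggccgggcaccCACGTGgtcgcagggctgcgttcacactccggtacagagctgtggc

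The stretch shown for Rab5b holds 4 CCAAT boxes and 2 GC boxes, and Rab1a has 3 GC boxes and no CCAAT box. Rab8b has 1 CCAAT box and 2 GC boxes, Rab28 has 1 of each, and Rab21 and Rab20 have 1 GC box and 1 E-box each. No capitals overlap between motifs in these 6 stretches. Of the 69 genes 56 had a promoter entry, with 74 such windows of 250 bases, since some genes have several starts. A GC box was found in 68.9% of these windows and in 42.6% of the 21263 windows of all protein-coding genes. The shares were 36.5% of the RAB windows and 35.4% of all windows for the CCAAT box, 10.8% of the RAB windows and 6.63% of all for the E-box, and 6.76% of the RAB windows and 11.6% of all for the TATA box (TATAAA). The amino acid response core (TGATGCAA) was in 0 RAB windows and in 0.790% of all. The ratio of observed to expected CpG had a median of 0.785 in the 34 windows of the 30 RAB genes with a peak at a promoter in either library, of 0.522 in the 40 windows of the 26 RAB genes without one, and of 0.530 over all windows. The median G and C content was 63.2% in the windows of genes with such a peak, 57.6% in those of RAB genes without and 55.6% over all windows. A match to a motif is a run of letters and no evidence of binding.

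RAB genes carried called H3K79me2 more often than protein-coding genes in general, in both conditions. The set was chosen with earlier results of these data known. This and the comparisons with all genes below therefore describe the set and are no test of it. The length of a gene that lies under broad peaks, its covered length in bp from end to end, was above 0 in 34 of 69 RAB genes in lysine (49.3%, against 31.4% of all protein-coding genes) and in 38 in PBS (55.1%, against 34.0%). Of all 69 genes 28 were covered in neither library (40.6%, against 61.3%). At least 500 bp, here called marked, was reached by 11 RAB genes in lysine (15.9%, against 9.02%) and 14 in PBS (20.3%, against 11.4%), and by 9 in both (13%, against 6.23%): Rab14, Rab31, Rab5a, Rab20, Rab7b, Rab30, Rab8b, Rab28 and Rab11fip4. Another 25 RAB genes were covered in at least 1 library and marked in neither. The median length of the RAB genes, 25.3 kb, also exceeded that of all genes, 17.1 kb, and the part of length in these shares was not tested. Peaks on RAB genes had a median fold enrichment of 5.35 in the lysine list, where peaks on all genes had 4.60, and of 5.18 in the PBS list, where peaks on all genes had 4.63.

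**Figure D1:**
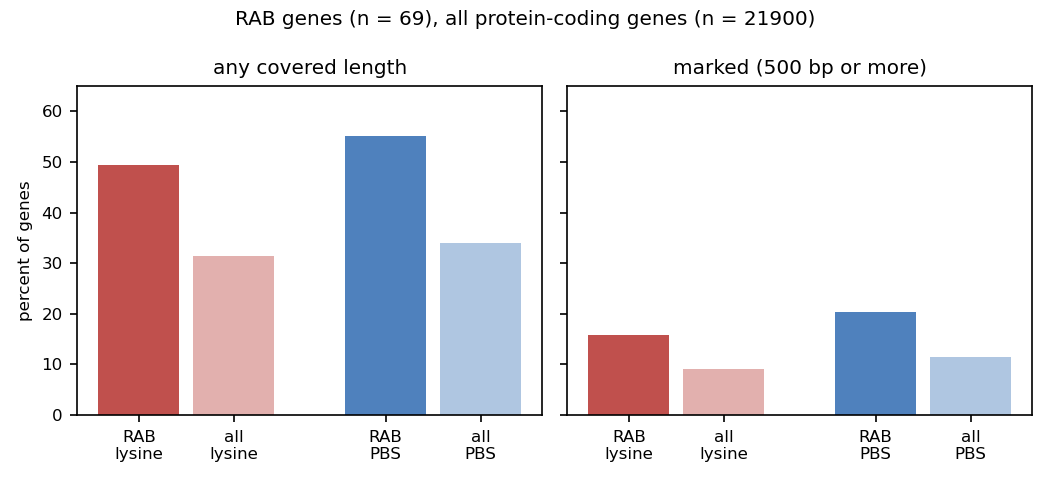
Percent of genes with any covered length (left panel) and with at least 500 bp (right panel) in the lysine and PBS libraries, full colour for the 69 RAB genes and pale for all 21900 protein-coding genes. In every pair of bars the RAB genes stand higher, for example 49.3% against 31.4% in lysine.

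Most RAB genes covered in one condition were covered in the other, and most covered genes had a shorter length in lysine. Both libraries covered 31 RAB genes (44.9%, against 26.7% of all genes), lysine alone 3 (4.35%, against 4.68%) and PBS alone 7 (10.1%, against 7.32%). These shares include genes covered in neither library. Among genes covered in either, PBS alone covered 7 of 41 RAB genes and 1602 of 8472 genes in the genome. Lysine alone covered 3 of these 41 and 1026 of these 8472. The summed covered length was 14.4 kb in lysine and 23.5 kb in PBS, a ratio of 0.615 compared with 0.796 over all protein-coding genes. Of the 41 RAB genes covered in either library, 29 were shorter in lysine (70.7%, against 58.2% of the 8472 such genes in the genome) and 12 were longer (29.3%, against 41.5%). Lysine minus PBS had a median of -95 bp in these 41 genes and -38 bp in the 8472. A shortfall of at least 500 bp was found in 7 RAB genes (10.1% of 69, against 4.26% of all genes). Rab1a alone was longer in lysine by as much, 1 of 69 genes (1.45%, against 1.83%). The 7 are Rab8b, Rab21, Rab37, Rab3gap2, Rab28, Rab5if and Rab10. Only covered genes can differ, and the shortfalls were 7 among the 41 RAB genes and 932 among the 8472 genes covered in either library. The gains were 1 among these 41 and 400 among these 8472. Among strict peaks, and by narrow blocks, the shortfalls were 3 and the gains 0, and with equal numbers of peaks in both lists they were 7 and 1. No share over all genes stands beside the counts under these alternatives, so they are not compared with the genome. For the 59 GTPases alone there were 5 shortfalls (8.47%, against 4.26% of all genes) and 1 gain (1.69%, against 1.83%). Of these GTPases 36 were covered in either library, 29 in lysine (49.2%, against 31.4%) and 34 in PBS (57.6%, against 34.0%).

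**Figure D2:**
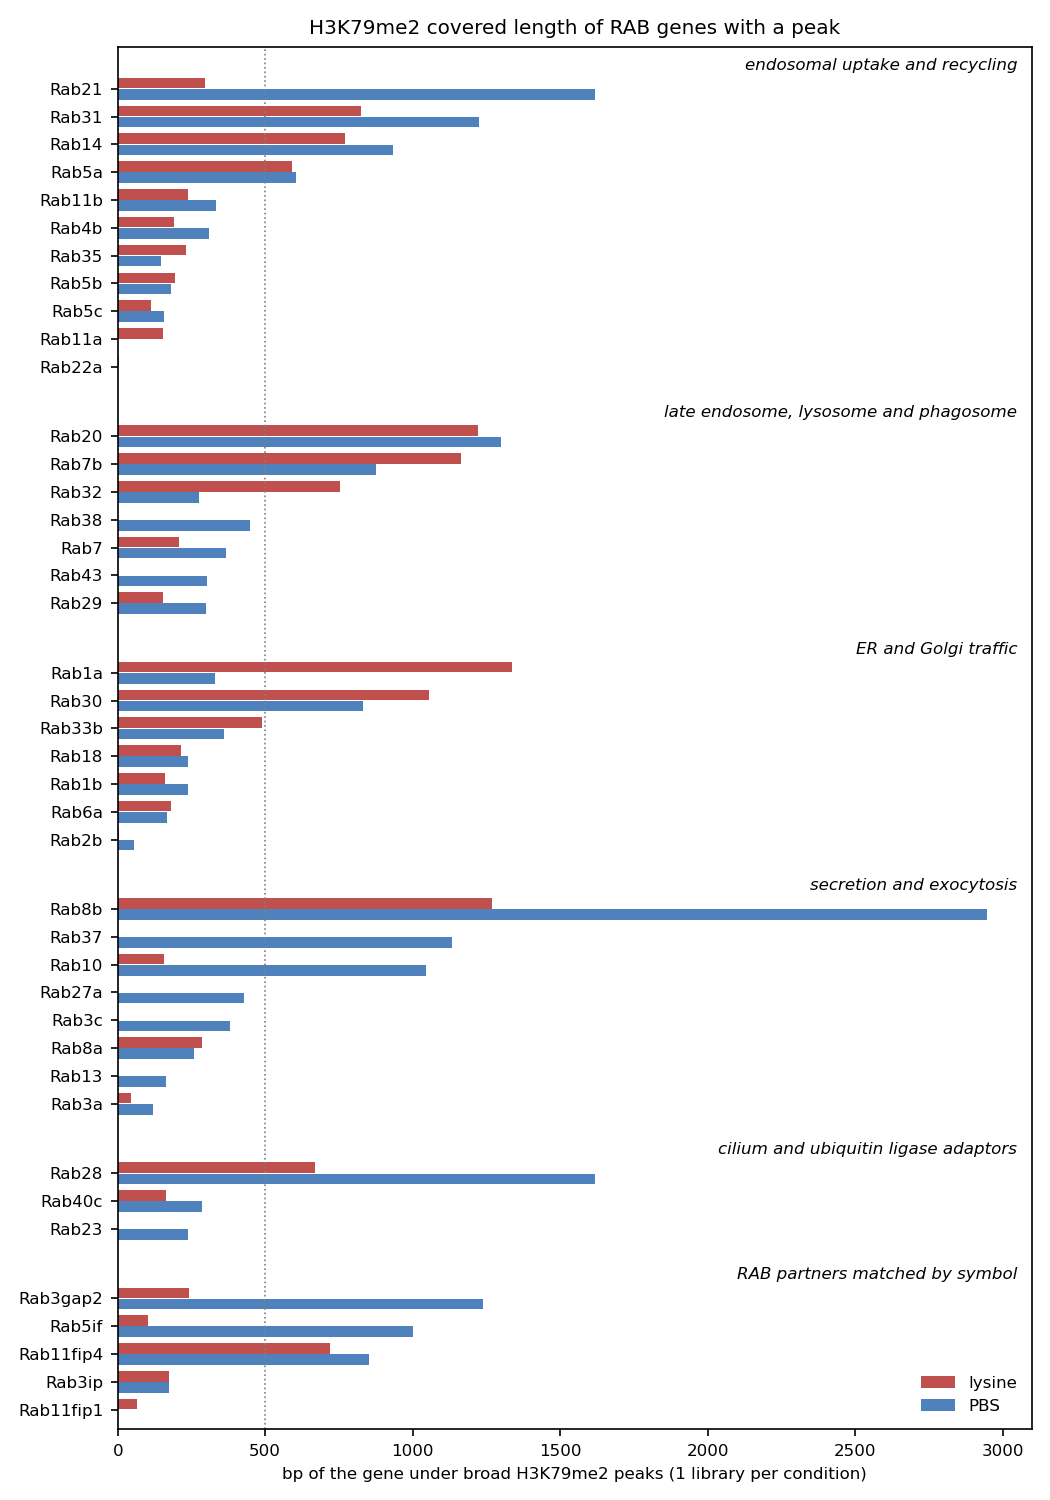
Bars give the covered length (bp) of the 41 RAB genes covered in either library, lysine (red) above PBS (blue), grouped by role. The dotted line stands at 500 bp; Rab8b in PBS has the longest bar (2949 bp), and Rab1a is the gene whose lysine bar most exceeds its PBS bar (1337 bp in lysine, 330 bp in PBS).

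Of the 16 genes of endosomal uptake and recycling 11 were covered in lysine and 9 in PBS, with 3 marked in lysine and 4 in PBS. For this and the role lists below, the shares over all genes are 31.4% covered in lysine and 34.0% in PBS. The marked shares are 9.02% in lysine and 11.4% in PBS. Their summed length was 3.61 kb in lysine and 5.505 kb in PBS, with 7 genes shorter in lysine, 4 longer and 5 covered in neither. The GTPases of the early endosome, which drive the fusion of incoming vesicles, were covered in both libraries in all 3 forms of Rab5. Rab5a (chromosome 17, 53479234 to 53507678) had 591 bp in lysine and 604 bp in PBS, nearly equal sums of different make-up, and overlaps Pp2d1. In lysine they came from 1 start peak of 930 bp, and in PBS from a start peak of 507 bp and a second peak of 414 bp that lay 9.57 kb inside the gene. Its relative Rab5b (chromosome 10, 128677170 to 128696284) had the strongest RAB peak, with a fold of 10.3 and rank 32 of 9805 in the lysine list and a fold of 16.0 and rank 5 of 11926 in the PBS list. The peak was 677 bp wide in lysine and 683 bp in PBS but lay mostly before the start, so it gave the gene only 193 bp in lysine and 179 bp in PBS. It also reaches Pmel, which overlaps Rab5b in the table. Rab5c had 113 bp in lysine and 158 bp in PBS.

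Rab21, which takes part in the endocytosis of integrins, had the largest endosomal difference. The gene (chromosome 10, 115289862 to 115317419) had 296 bp in lysine and 1620 bp in PBS, each in 1 peak over its RefSeq start. The lysine peak had a fold of 3.95 and lay in the weaker part of its list (rank 7298 of 9805), while the PBS peak had a fold of 5.29 (rank 3699 of 11926). By narrow blocks the difference was -369 bp. Rab14, a GTPase of early endosomes and the Golgi, was marked in both libraries with the same pair of peaks. Its start peak was 605 bp wide in lysine and 681 bp in PBS, the second peak, 5.11 kb (lysine) and 5.05 kb (PBS) inside the gene, was 486 bp wide in lysine and 674 bp in PBS, and the sums were 771 bp in lysine and 932 bp in PBS (chromosome 2, 35180205 to 35201120). Rab31, which moves cargo between the Golgi and endosomes, had no peak at its start. It had 826 bp in lysine and 1224 bp in PBS (chromosome 17, 65651726 to 65772752), from lysine peaks 37.4 and 110 kb and PBS peaks 37.5, 42.3 and 45.8 kb from the start, so 1 site was common to both. The recycling GTPases Rab4b (192 bp in lysine, 309 bp in PBS), Rab11b (238 bp in lysine, 333 bp in PBS) and Rab35 (230 bp in lysine, 146 bp in PBS) each had 1 peak over the start in both libraries. Rab11a had 155 bp in lysine and 0 bp in PBS, from a weak peak with a −log10 q of 1.66, and Rab22a had 4 bp in lysine and 0 bp in PBS, although a peak stood just before its start in both. Rab12, Rab15, Rab17, Rab25 and Rab4a had no covered length.

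Among the 14 genes of late endosomes, lysosomes and phagosomes, 5 were covered in lysine and 7 in PBS, with 3 marked in lysine and 2 in PBS. The ratio of the sums was the nearest to 1 among the role lists, at 0.904, with 3.50 kb in lysine and 3.87 kb in PBS, with 5 genes shorter in lysine, 2 longer and 7 covered in neither. The difference of the list, -0.37 kb, was -2.592 kb among high-fold peaks and turned to 0.34 kb with 1 kb added at both gene ends. Rab7, which directs late endosomes and phagosomes to lysosomes, had 207 bp in lysine and 367 bp in PBS, both from a start peak. Rab20, known from macrophages as a GTPase of maturing phagosomes, was marked with 1222 bp in lysine and 1299 bp in PBS (chromosome 8, 11453390 to 11478640). Its main peak lay 14.4 kb inside the gene in both libraries, 911 bp wide with a fold of 8.0 in lysine and 908 bp wide with a fold of 5.86 in PBS, and none touched the promoter shown above. Rab7b, a GTPase of late endosomes and the Golgi that limits Toll-like receptor signalling in macrophages, had 1163 bp in lysine and 877 bp in PBS (chromosome 1, 131688681 to 131715443). The lysine value came from 1 wide peak with a fold of 3.33, and for high-fold peaks the Rab7b difference turned to -877 bp.

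Rab32 and its paralogue Rab38, which serve lysosome-related organelles, went in opposite directions. Rab32 (chromosome 10, 10545039 to 10558207) had 754 bp in lysine from 3 peaks and 277 bp in PBS from 1. The peak 7.87 kb inside the gene in lysine stood at 7.86 kb in PBS, and the lysine peaks at the start and at 2.90 kb had no PBS partner. All 3 lysine peaks were weak, with a −log10 q of 2.06 to 2.80, and counting high-fold peaks alone turned the Rab32 difference to -116 bp. Rab38 had 0 bp in lysine and 449 bp in PBS. Rab43, linked to cross-presentation in mouse dendritic cells, had 0 bp in lysine and 304 bp in PBS, from a peak 929.5 bp after the start. Rab29 had 155 bp in lysine and 298 bp in PBS. Rab24, Rab34, Rab39, Rab39b, Rab42, Rab9 and Rab9b had no covered length.

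The 12 genes of traffic between the endoplasmic reticulum and the Golgi were the only role list with a longer sum in lysine, 3.44 kb against 2.22 kb in PBS. Each library covered 7 of them, 2 were marked in lysine and 1 in PBS, with 4 longer in lysine, 3 shorter and 5 covered in neither. Rab1a, which sends vesicles from the endoplasmic reticulum to the Golgi, accounts for 1007 bp of the list's difference of 1.221 kb (chromosome 11, 20201412 to 20226856). In lysine 1 peak of 1849 bp began 512 bp before the start and ended 1336 bp after it, giving 1337 bp. In PBS a start peak of 557 bp began 509 bp before the start and ended 47 bp after it, and a second peak of 282 bp was centred 1.45 kb after the start, giving 330 bp. The lysine peak overlaps both PBS peaks and fills the gap between them. The single lysine peak had a fold of 4.28 and the PBS start peak one of 6.82, and the Rab1a difference turned to -48 bp among strict peaks and to -212 bp by narrow blocks. The strict cut leaves out the whole lysine peak of 1849 bp (−log10 q of 3.45). The difference of the list was -0.007 kb among strict peaks and 0.002 kb by narrow blocks.

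Rab30, a Golgi GTPase, was marked in each library, at 1054 bp in lysine and 832 bp in PBS (chromosome 7, 92741637 to 92844535). A peak over the lower-coordinate end of the gene and another at 91.0 kb from it were common to both, and a further lysine peak of 377 bp at 95.8 kb had no PBS partner. Rab33b, a Golgi GTPase that also binds the autophagy machinery, had 489 bp in lysine and 362 bp in PBS. Rab6a, of retrograde Golgi traffic, had 179 bp in lysine and 166 bp in PBS from a strong start peak (rank 450 of 9805 in lysine and 149 of 11926 in PBS) that also covers part of Mrpl48. Rab18, of the endoplasmic reticulum and lipid droplets, had 216 bp in lysine and 238 bp in PBS, Rab1b 160 bp in lysine and 238 bp in PBS, and Rab2b, whose peak reaches Tox4, 6 bp in lysine and 54 bp in PBS. Rab19, Rab2a, Rab33a, Rab36 and Rab6b had no covered length.

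The 13 genes of secretion and exocytosis had the largest shortfall of the role lists over all broad peaks, 1.76 kb in lysine against 6.48 kb in PBS. Their median gene length, 52.8 kb, was also the largest, with 17.6 to 47.4 kb in the other role lists, and the part of length was not tested. Of these 4 were covered in lysine and 8 in PBS, 1 was marked in lysine and 3 in PBS, and 7 were shorter in lysine, 1 longer and 5 covered in neither. With equal numbers of peaks in both lists the difference was -2.845 kb in place of -4.719 kb, and among strict peaks it was -1.95 kb, when the endosomal list had the larger shortfall (-2.479 kb). Rab8b, which acts in polarised secretion, had the largest difference of any RAB gene, with 1268 bp in lysine and 2949 bp in PBS (chromosome 9, 66843609 to 66919705). The 4 sites of the gene were the same in both libraries: the start and positions 24.7, 36.03 and 37.6 kb inside it in lysine, and 24.5, 35.8 and 37.5 kb in PBS. The start peak was 596 bp wide in lysine and 1508 bp in PBS, and the inner peaks 355, 334 and 336 bp in lysine and 654, 389 and 702 bp in PBS. By narrow blocks the difference was -69 bp, and with equal numbers of peaks it was -638 bp. Its paralogue Rab8a had 287 bp in lysine and 257 bp in PBS from a single start peak in each.

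Rab10, which brings membrane proteins such as glucose transporters in fat cells to the surface, had 157 bp in lysine and 1046 bp in PBS (chromosome 12, 3247428 to 3309969). Its start peak was the same, 517 bp wide in lysine and 525 bp in PBS, and the difference is a PBS peak of 883 bp lying 27.0 kb inside the gene. Among strict peaks the Rab10 difference was -6 bp. Rab37, a GTPase of secretory granules in mast cells, had 0 bp in lysine and 1133 bp in PBS, from 3 weak PBS peaks with a −log10 q of 2.35 to 2.94 (chromosome 11, 115091331 to 115162773). One of them lies where Cd300lf overlaps the gene, and among strict peaks Rab37 had 0 bp in both libraries. Rab27a, which docks lysosome-related organelles for release, had 0 bp in lysine and 427 bp in PBS, Rab3c had 0 bp in lysine and 380 bp in PBS, and Rab13, whose peak reaches Rps27, had 0 bp in lysine and 165 bp in PBS. Rab3a, best known from synaptic vesicles, had 46 bp in lysine and 120 bp in PBS, at the edge of a start peak. Rab26, Rab27b, Rab3b, Rab3d and Rab44 had no covered length. A weak lysine peak of 344 bp (−log10 q of 1.55) stood just before the start of Rab3d and had no PBS partner.

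**Figure D3:**
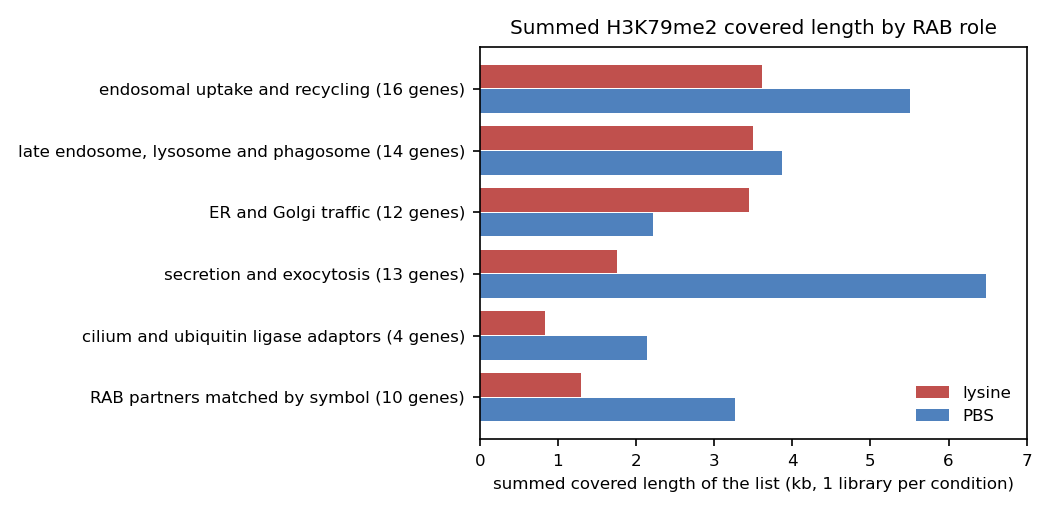
Summed covered length in kb for each role list, lysine (red) above PBS (blue), 1 library per condition. The secretory list shows the widest gap (1.76 kb in lysine, 6.48 kb in PBS), and the list of traffic between endoplasmic reticulum and Golgi is the one with the longer lysine bar (3.44 kb in lysine, 2.22 kb in PBS).

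Among the 4 genes of cilia and ubiquitin ligase adaptors, 2 were covered in lysine and 3 in PBS. Rab28, a ciliary GTPase, was marked in both with 670 bp in lysine and 1618 bp in PBS (chromosome 5, 41624973 to 41708193). Its second peak, 80.7 kb (lysine) and 80.6 kb (PBS) from the start, was 510 bp wide in lysine and 469 bp in PBS, and the difference lies in the start peak of 481 bp in lysine and 1442 bp in PBS. By narrow blocks Rab28 was 147 bp longer in lysine. Rab40c, an adaptor of ubiquitin ligases, had 165 bp in lysine and 287 bp in PBS, Rab23, a brake on hedgehog signalling, had 0 bp in lysine and 238 bp in PBS, and Rab40b had no covered length. Of the 10 partner genes 5 were covered in lysine and 4 in PBS, with 1 marked in lysine and 3 in PBS. Rab3gap2, a subunit of the complex that acts on Rab3 and Rab18, had 242 bp in lysine and 1238 bp in PBS (chromosome 1, 185204088 to 185286756, overlapping Iars2). Rab5if had 102 bp in lysine and 1001 bp in PBS (chromosome 2, 156863122 to 156873563). The difference turned to 33 bp for Rab3gap2 by narrow blocks, and to 102 bp for Rab5if among strict peaks. Rab11fip4, an effector of Rab11, had 720 bp in lysine and 851 bp in PBS (chromosome 11, 79591021 to 79698016), with 1 of 2 peaks in each library in common. Rab3ip, an exchange factor for Rab8, had 173 bp in lysine and 174 bp in PBS, and Rab11fip1 had 64 bp in lysine and 0 bp in PBS. Rab11fip2, Rab11fip3, Rab11fip5, Rab3gap1 and Rab3il1 had no covered length.

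Of 16 sets of related RAB genes, every member was covered in either library in 7, some members in 7 and none in 2, Rab9 with Rab9b and Rab39 with Rab39b. In the sets with some members covered, Rab4b, Rab6a, Rab2b, Rab33b, Rab27a and Rab40c had peaks while Rab4a, Rab6b, Rab2a, Rab33a, Rab27b and Rab40b had none, and of the 4 forms of Rab3 the genes Rab3a and Rab3c were covered. Over all sets and single genes 41 of 69 RAB genes were covered in either library, and whether paralogues differ more than other RAB genes was not tested.

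Most peaks on RAB genes with a RefSeq start lay near it, with a median midpoint slightly before it. Over the 56 RAB genes with a RefSeq start, peaks on the gene or within 1 kb of its ends numbered 40 in lysine and 45 in PBS. The midpoint lay within 1 kb of a start in 28 of them in lysine (70.0%, 95% Clopper-Pearson interval 53.5 to 83.4) and in 28 in PBS (62.2%, 46.5 to 76.2), and in other protein-coding genes in 69.2% in lysine and 63.1% in PBS. These intervals cover counting error only. The median midpoint of such start peaks was at -94 bp in lysine and -44.8 bp in PBS relative to the start, and in other genes at -63.5 bp in lysine and -57.5 bp in PBS. They began a median of 346 bp before the start and ended 160.5 bp past it in lysine, and 350 bp before and 237 bp past it in PBS. In other genes these medians were 307 and 181 bp in lysine and 312.5 and 190 bp in PBS. How this compares with the usual place of the mark inside the 5' part of genes was not tested. The promoter window of 300 bases, 250 before the start and 50 after it, was touched in 28 of 56 genes in lysine (50%, against 26.7% of all genes with a start) and 27 in PBS (48.2%, against 28.1%). Of the 28 start peaks in each library, 25 in lysine (89.3%, against 84.9% in other genes) and 25 in PBS (89.3%, against 80.1%) overlapped a peak of the other list. Of the peaks elsewhere in these genes 10 of 12 lysine peaks (83.3%, against 68.4%) and 11 of 17 PBS peaks (64.7%, against 49.5%) did. Counting 1 kb at both ends of the gene as well made 25 RAB genes marked in lysine (36.2%, against 17.8% of all genes) and 24 in PBS (34.8%, against 20.7%). The flanks also took in peaks at Traf7 next to Rab26 and at Slc9a3r1 next to Rab37.

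Start peaks of several RAB genes reached less far into the gene in lysine. In the 25 RAB genes with a start peak in both libraries, the peak reached a median of 164 bp past the start in lysine and 237 bp in PBS, and began a median of 353 bp before it in lysine and 362 bp in PBS. In the 4117 other genes with a start peak in both, the median reach past the start was 183 bp in lysine and 193 bp in PBS. The reach past the start was at least 500 bp shorter in lysine in 5 of the 25 RAB genes (20%, against 3.93% of the other genes) and at least 500 bp longer in 1 (4%, against 2.79%). The 5 are Rab8b (242 bp in lysine, 1203 bp in PBS), Rab21 (51 bp in lysine, 1046 bp in PBS), Rab28 (145 bp in lysine, 1134 bp in PBS), Rab5if (101 bp in lysine, 1000 bp in PBS) and Rab3gap2 (161 bp in lysine, 1157 bp in PBS). All 5 lysine peaks ended between 51 and 242 bp past the start, and the PBS peaks between 1000 and 1203 bp. The exception in the other direction was Rab1a, with 1336 bp in lysine and 47 bp in PBS. Measuring the reach past the start was decided after these peaks had been seen. All 5 genes are also among those with a shortfall of at least 500 bp in covered length. The reach largely repeats that difference (-996 bp by both measures in Rab3gap2, -899 bp by both in Rab5if), so it is not a separate result. With equal numbers of peaks in both lists the same 5 of 24 RAB genes stood out (20.8%, against 3.42% of other genes), among high-fold peaks 3 of 21 did (14.3%, against 3.45%), and among strict peaks 2 of 16 (12.5%, against 3.18%), Rab8b and Rab3gap2. By narrow blocks the covered lengths of the 5 genes differed less, lysine minus PBS, by -369 bp in Rab21, -69 bp in Rab8b and -50 bp in Rab5if, and turned to 33 bp in Rab3gap2 and 147 bp in Rab28.

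**Figure D4:**
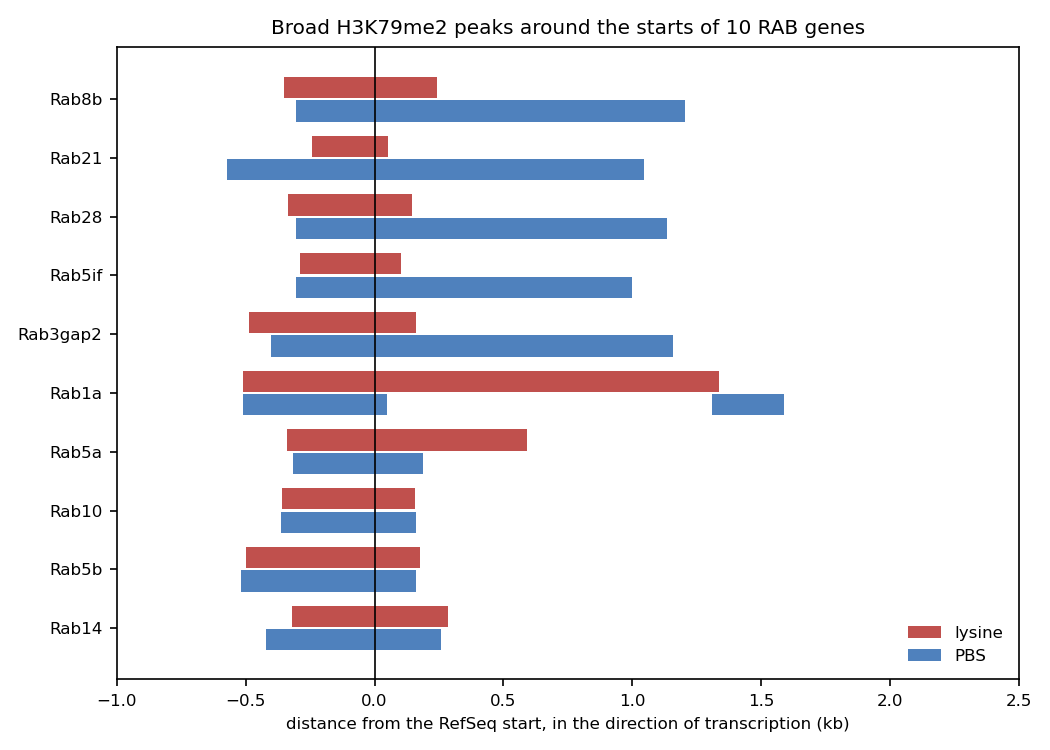
Broad peaks around the RefSeq start (vertical line at 0) of 10 RAB genes, in kb along the direction of transcription, lysine (red) above PBS (blue). In Rab8b, Rab21, Rab28, Rab5if and Rab3gap2 the lysine peak ends at 51 to 242 bp and the PBS peak at 1000 to 1203 bp; in Rab1a the lysine peak bridges the gap between 2 PBS peaks, and in Rab10 and Rab5b both peaks have nearly the same ends.

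Genes that turn RABs on and off did not share one direction. Beside the counts of these lists stand the shares over all genes, 31.4% covered in lysine and 34.0% in PBS. The marked shares over all genes were 9.02% in lysine and 11.4% in PBS, and whether the lists differ from them was not tested. Regulators whose symbol begins with Rab and a digit are counted with the partners above and not here. Among them is Rab3gap2, with 242 bp in lysine and 1238 bp in PBS. The alternatives, such as strict peaks and narrow blocks, were not run on these lists, so their directions have no such check. Of 31 GTPase-activating proteins, which turn RABs off, 20 were covered in lysine and 18 in PBS, 11 were marked in lysine and 8 in PBS, 14 were longer in lysine and 8 shorter, and the sum was 13.1 kb in lysine and 10.2 kb in PBS. Tbc1d20, which acts on Rab1 and Rab18, had 1470 bp in lysine and 496 bp in PBS, Tbc1d5, which acts on Rab7, 2168 bp in lysine and 1772 bp in PBS, and Usp6nl, which acts on Rab5, 1587 bp in lysine and 1331 bp in PBS. Rabgap1l, which overlaps Gpr52, had 0 bp in lysine and 1166 bp in PBS. Of 31 exchange factors, which turn RABs on, 15 were covered in lysine and 22 in PBS, 8 were marked in lysine and 11 in PBS, 7 were longer in lysine and 18 shorter, and the sum was 8.495 kb in lysine and 13.2 kb in PBS. Dennd2d had 1619 bp in lysine and 1299 bp in PBS and overlaps Cept1, Dennd4a, an exchange factor for Rab10, had 1315 bp in lysine and 1572 bp in PBS, Sbf2 had 379 bp in lysine and 1077 bp in PBS, and Dennd2c had 0 bp in lysine and 864 bp in PBS.

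Of 36 effectors 12 were covered in lysine and 16 in PBS, 3 were marked in lysine and 5 in PBS, 4 were longer in lysine and 14 shorter, and the sum was 4.50 kb in lysine and 7.48 kb in PBS. Eea1, the tether that Rab5 recruits to early endosomes, had 641 bp in lysine and 1039 bp in PBS. Rilpl2 had 311 bp in lysine and 930 bp in PBS, Plekhm1, a Rab7 effector on lysosomes, 224 bp in lysine and 777 bp in PBS, and Myo5a, the motor that Rab27a engages, 992 bp in lysine and 895 bp in PBS. Of the 8 genes listed as RAB lipid modification and recycling factors, 4 were covered in each library and 0 were marked, and the sums were 1.13 kb in lysine and 1.00 kb in PBS. Rabif had 419 bp in lysine and 430 bp in PBS, Rabggtb 251 bp in lysine and 188 bp in PBS, and Gdi2, which overlaps Tasor2, 202 bp in lysine and 97 bp in PBS. Over all protein-coding genes 3516 were longer in lysine and 4931 shorter. The median gene length was 67.6 kb for the GTPase-activating proteins, 60.5 kb for the exchange factors and 49.5 kb for the effectors. It was 6.63 kb for the lipid modification and recycling factors and 17.1 kb over all genes, and the part of length was not tested.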

How the data were processed

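H3K79me2 ChIP and input libraries of fixed BMDCs given lysine or PBS were read from both ends, per the labels' protocols, and groups come from the sample titles. Per the submitters' processing notes the tools were MACS2 2.1.2, Bowtie2 2.3.4.1, Trimmomatic 0.38, cutadapt 1.18, Picard, FastQC and ChIPseeker, and GRCm38 was the build; no roles are stated. Neither the calling thresholds nor the use of the inputs is given in the sources used here, and the inputs were not analysed here. Peaks were deposited per sample. The files have no header and were read by the layout of MACS2. The deposited fold enrichment is a linear ratio over the local background. The deposited significance is a −log10 p and a −log10 q, and the deposited score equals that −log10 q multiplied by 10 and cut to a whole number, except in 1 lysine peak. The deposited gapped lists add a count of narrow blocks per region and their positions; blocks of 1 bp were left out. These values depend on depth, so ranks were taken only within each list. The same cut-offs of −log10 q and fold were nevertheless applied to both lists, and folds of both libraries are printed side by side. Since depth is unknown, differences among strict or high-fold peaks and differences in fold cannot be told apart from a difference in depth. Each peak has 1 fold and 1 −log10 q whatever its width, so a cut-off drops a wide peak whole. The strict cut dropped the Rab5if peak of 1305 bp in PBS (−log10 q of 4.79) and kept the Rab8b peak of 1508 bp in PBS (10.5). The high-fold cut dropped the Rab28 peak of 1442 bp in PBS (fold of 3.89). The part of width in these values was not tested.

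Genes and starts are those of RefSeq, GRCm38.p6. The gene table holds no exons, so exons and introns were not separated. Of the 69 members 6 overlap another protein-coding gene. Starts were not in the table used for Rab4a, Rab38, Rab7b, Rab18, Rab2a, Rab30, Rab36, Rab26, Rab27b, Rab37, Rab44, Rab11fip1 and Rab11fip4. Distances are from a peak's midpoint to the nearest start, and peaks were shared if at least 1 bp overlapped. Named with both values is every member with at least 500 bp in either library, and from each list of the RAB cycle the 2 longest covered genes and the 2 that differ most; members under 500 bp are named beside them. Dennd2b was matched by a synonym. One gene named by this rule is left out of the text. The members and lists were chosen with earlier results of these data known. Alternatives were a minimum −log10 q of 2 or 5, a fold of at least 4, equal peak numbers, narrow blocks, 1 kb flanks, members without overlaps, GTPases alone, other marking limits (250 and 1000 bp) and a 2 kb start window. Scripts ran in Python 3.11.15 with pandas 2.3.3, matplotlib 3.10.9, scipy 1.17.1 and numpy 2.4.6. Covered length was tested on simulated data and checked against bedtools 2.31.1, with 0 differences.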

Additional observations from a re-analysis of the deposited data

How the results depend on the processing

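No paired analysis was possible because each condition has 1 library. The total difference of the RAB genes, -9.035 kb, kept its direction under every alternative run, with the smallest value, -5.731 kb, by narrow blocks. Among strict peaks (−log10 q of 5 or more) the marked genes were 5 in lysine and 9 in PBS, the shortfalls of 500 bp or more 3 and the gains 0, and the differences in sum -0.007 kb for traffic between endoplasmic reticulum and Golgi (1.221 kb as reported), -1.95 kb for secretion (-4.719), -0.431 kb for cilia (-1.308) and -0.977 kb for the partners (-1.963). Among high-fold peaks (fold of 4 or more) the sums differed by -2.592 kb for late endosomes (-0.37 as reported), -2.863 kb for secretion and -0.669 kb for cilia, and with equal numbers of peaks by -2.845 kb for secretion. By narrow blocks the shortfalls were 3 and the gains 0, and the sums differed by -0.941 kb for endosomal uptake (-1.896 as reported), -1.387 kb for late endosomes, 0.002 kb for endoplasmic reticulum and Golgi, -3.107 kb for secretion, -0.213 kb for cilia and -0.085 kb for the partners. With 1 kb flanks 25 genes were marked in lysine and 24 in PBS, the gains were 3, and the sums differed by 0.34 kb for late endosomes, 0.724 kb for endoplasmic reticulum and Golgi and -1.091 kb for the partners. Without overlapping genes the partners differed by -0.967 kb, which leaves out Rab3gap2. At a limit of 1000 bp 5 genes were marked in lysine and 9 in PBS, and at 250 bp 14 in lysine and 27 in PBS. Among the alternatives, shares over all or other genes are given above only for genes marked with 1 kb flanks and for the reach past the start. Under the alternatives added after the data were seen, the start peaks with a shorter reach in lysine were 3 among high-fold and 2 among strict peaks. Of the 16 genes named for at least 500 bp, 8 kept their direction under all alternatives, 7 turned under some and Rab37 showed no difference under 1. Those that turned were Rab7b (-877 bp for high-fold peaks, -576 bp by narrow blocks), Rab32 (-116 bp for high-fold peaks), Rab1a (-48 bp for strict peaks, -212 bp by narrow blocks), Rab5if (102 bp for strict peaks), Rab3gap2 and Rab28 (33 and 147 bp by narrow blocks) and Rab5a (9 bp with 1 kb flanks). The causes were not tested. Depth is unknown, and a gene without a called peak can carry the mark below the threshold.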
